A study of Homo sapiens with 4 samples.

Results

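Extracellular proteolysis by matrix metalloproteinases and plasminogen activators was examined in SUIT2 cells through 9 genes. They were MMP1, MMP7, MMP14, TIMP1, TIMP2, TIMP3, PLAU, PLAUR and ADAMTS15, chosen by name with earlier results of these data known. A gene was taken as measured where the platform annotation gave its symbol to a row of the deposited array values. Of the 9 genes 8 had such a row, with 1 transcript cluster each, out of 17687 named genes on the array. Such a row is called a transcript cluster and gathers the probes of 1 locus. TIMP2 was not analysed here.

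Total RNA was hybridised to 4 biotin-labelled whole-transcript arrays, 2 from untreated cells that received phosphate-buffered saline and 2 from cells given fb-PMT at 30 µM, all for 24 h. fb-PMT is an anticancer agent derived from tetraiodothyroacetic acid, a thyroid hormone analog directed at integrin αvβ3, and the series asks how it alters genes that cancer cell mitochondria need. All arrays came from the same established line with no transgene or other agent named in the labels. Nothing in the labels says that replicates were separate cultures, so a p-value here reflects no more than the variation among these arrays, which may be technical. In RNA from whole cultures, fewer cells of a kind and less RNA per cell cannot be told apart.

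Matrix metalloproteinases (MMPs) are zinc-dependent enzymes that are made as inactive precursors, cut collagens, laminins and cell surface proteins, and are held in check by the tissue inhibitors of metalloproteinases (TIMPs). In the plasminogen system, urokinase (PLAU) bound to its receptor (PLAUR) turns plasminogen into plasmin, which cuts fibrin and activates several MMP precursors. ADAMTS15 belongs to a related family of secreted metalloproteinases that cut aggrecan and versican. Both systems are known for their part in the invasive growth of carcinomas, pancreatic ones among them.

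All values below are log2 probe set values of the deposited table, where 1 unit is a doubling. The median over the 21448 transcript clusters was 6.27 to 6.28 on each array. Background was taken as the 95th percentile of the 612 negative control probe sets of an array: 7.38 and 7.22 for control, 7.15 and 7.29 for fb-PMT. "Below the negative controls" means under that value on both arrays of the group named. Levels of different genes on an array depend on their probes, so no gene's level is set against another's.

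The labels call SUIT2 a glioblastoma line, whereas the line is known as a pancreatic ductal adenocarcinoma. KRT8, KRT18, KRT19 and EPCAM, markers of ductal epithelium, lay between 15.09 and 16.45 on the 4 arrays. Of the 7 ductal markers measured, MUC1 (5.74 to 6.02) and CDH1 (6.94 to 7.12) were under the background on every array. All 6 measured glial markers stayed under the background on every array, with GFAP at 3.78 to 4.50 and OLIG2 at 2.34 to 2.92. Among other cell types, 5 of 6 fibroblast, 4 of 5 leukocyte and 5 of 5 endothelial markers did so too, COL1A1 and PTPRC included. The exceptions were COL1A2 at 7.90 to 8.34 and CD68 at 11.14 to 11.50.

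Promoter sequence was at hand for 5 protease and inhibitor genes and the receptor gene. Those of MMP7, TIMP3 and PLAUR are shown as 1 AT-rich window, 1 window rich in GC boxes and 1 between them. Each line gives the 250 bases before the RefSeq transcription start (GRCh38.p14), 5′ to 3′ on the gene's strand: chr11:102530748-102530997 (minus strand) for MMP7, chr22:32801455-32801704 (plus strand) for TIMP3 and chr19:43670170-43670419 (minus strand) for PLAUR. Capitals mark matches on either strand to an AP-1 motif (TGANTCA), the ETS core (AGGAAG), the TATA box (TATAAA) or the GC box (GGGCGG), which did not overlap each other here.
MMP7: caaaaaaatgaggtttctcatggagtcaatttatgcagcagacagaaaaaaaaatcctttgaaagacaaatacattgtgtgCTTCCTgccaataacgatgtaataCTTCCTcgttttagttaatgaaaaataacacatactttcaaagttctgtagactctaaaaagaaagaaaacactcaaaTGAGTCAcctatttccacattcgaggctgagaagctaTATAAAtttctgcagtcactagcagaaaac
TIMP3: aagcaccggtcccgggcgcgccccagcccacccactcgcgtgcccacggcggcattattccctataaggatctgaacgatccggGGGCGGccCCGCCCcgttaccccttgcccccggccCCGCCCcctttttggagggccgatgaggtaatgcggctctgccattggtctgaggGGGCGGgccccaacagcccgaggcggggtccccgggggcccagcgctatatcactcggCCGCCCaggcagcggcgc
PLAUR: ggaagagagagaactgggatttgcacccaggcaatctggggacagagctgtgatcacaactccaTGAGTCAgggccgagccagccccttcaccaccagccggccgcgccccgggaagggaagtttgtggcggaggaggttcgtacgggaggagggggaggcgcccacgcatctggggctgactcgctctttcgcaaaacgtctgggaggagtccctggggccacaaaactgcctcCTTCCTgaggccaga

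The MMP7 window held 1 AP-1 motif, which began 67 bases before the start, 1 TATA box, which began 30 bases before it, and 2 ETS cores, with a GC content of 33.6%. TIMP3 was the opposite kind, with 5 GC boxes, 26 CpG dinucleotides, a GC content of 72.4% and none of the other motifs. PLAUR held 1 AP-1 motif, which began 186 bases before the start, and 1 ETS core. Over all 35116 promoter windows of this length, 6.57% held the AP-1 motif, 28.71% the ETS core, 10.72% the TATA box and 42.64% the GC box. A match is a run of letters, not evidence of binding. Of the other members, MMP14 held 1 GC box and TIMP1 held 1 ETS core and 2 GC boxes. PLAU has 2 listed starts: the window of the downstream one held 1 ETS core and 3 GC boxes, and that of the upstream one held none of these letters.

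The comparison of fb-PMT with control asked which of the 8 measured genes differed. MMP7 was higher by 0.67 and MMP14 and PLAUR by 0.60 and 0.33, while ADAMTS15, TIMP3, MMP1, PLAU and TIMP1 were lower, with log2 differences of -1.02, -0.65, -0.36, -0.25 and -0.24. In limma's test, adjusted by Benjamini-Hochberg over all 21448 transcript clusters, 0 of the 8 passed 0.05 in either direction. Over all transcript clusters 0.0979% passed as higher and 0% as lower. At an unadjusted p under 0.05 there was 1 member higher (MMP7) and 3 lower (ADAMTS15, TIMP3 and MMP1), against 5.7% higher and 5.49% lower over all transcript clusters. With a variance prior that follows intensity, those 4 genes passed, and the values follow those of the single genes.

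**Figure D1:**
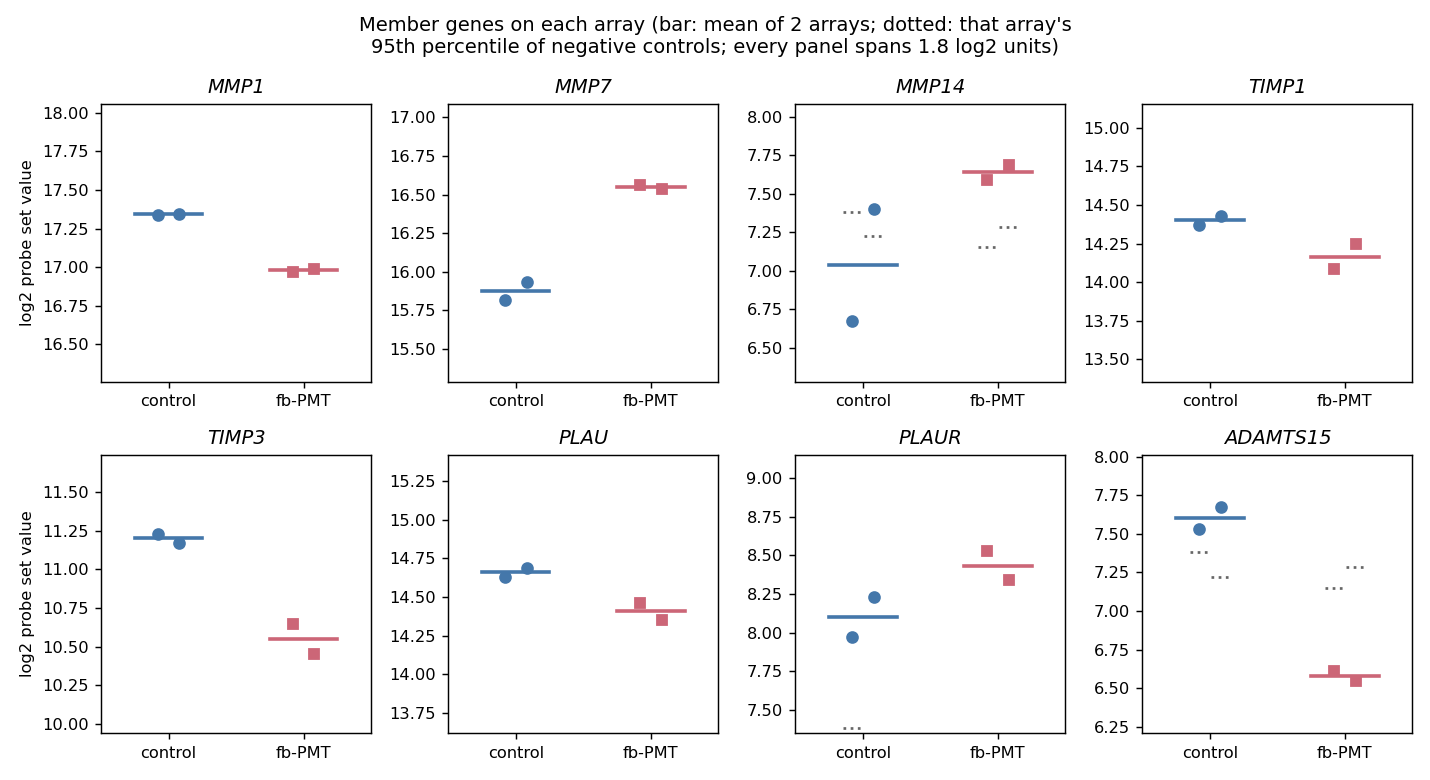
Log2 probe set values (vertical axis) of the 8 measured genes on each control array (circles) and fb-PMT array (squares), with the mean of 2 arrays as a bar and each array's negative control percentile as a dotted line where it falls in the panel. Groups do not overlap in any panel, and the replicate arrays lie farthest apart for MMP14 in the control group.

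The proteases come first. MMP1, interstitial collagenase, cuts the triple helix of fibrillar collagens. It read 17.34 and 17.35 in untreated cells, against 16.97 and 16.99 with the drug. Both fb-PMT values were below both control values, and the replicates of each group were nearly equal. The mean was 1.29-fold lower with fb-PMT (log2 difference -0.36, SE 0.14, 95% interval -0.72 to -0.0057, limma adjusted p = 0.446).

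MMP7, matrilysin, is a small MMP without the hemopexin domain of its relatives, made by glandular epithelium and by many carcinomas. It read 15.81 and 15.94 in untreated cells, against 16.56 and 16.53 with the drug. The groups were clearly apart, with 0.60 to 0.75 between any treated and any control array. The mean was 1.59-fold higher with fb-PMT (log2 difference 0.67, SE 0.15, 95% interval 0.31 to 1.04, adjusted p = 0.256).

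MMP14 is anchored in the membrane and activates the precursor of MMP2. It read 6.68 and 7.40 in the control group and 7.59 and 7.69 in the fb-PMT group. The first control array was below its negative controls and the second just above, so the control level is poorly fixed. The mean was 1.52-fold higher with fb-PMT (log2 difference 0.60, SE 0.26, 95% interval -0.04 to 1.24, adjusted p = 0.474). The difference was 0.24 without control replicate 1 and 0.96 without control replicate 2.

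ADAMTS15 lay near the background in both groups. Its control arrays read 7.53 and 7.68, just above the negative controls, and its fb-PMT arrays 6.61 and 6.54, below them. With the treated level under background only a bound of the fold holds: at least 1.31-fold lower (measured log2 difference -1.02, SE 0.15, 95% interval -1.40 to -0.65, adjusted p = 0.126).

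The inhibitors followed. TIMP3, which binds to the matrix and also inhibits ADAM17 and ADAMTS proteases, read 11.23 and 11.17 in the control group and 10.65 and 10.45 in the fb-PMT group. Every treated array was at least 0.53 below every control array. The mean was 1.57-fold lower (log2 difference -0.65, SE 0.16, 95% interval -1.04 to -0.27, adjusted p = 0.283).

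TIMP1, a soluble inhibitor of most secreted MMPs, read 14.37 and 14.43 without drug and 14.08 and 14.24 with it. The groups did not overlap, yet the nearest arrays were only 0.13 apart. The log2 difference was -0.24 (SE 0.15, 95% interval -0.61 to 0.14, adjusted p = 0.609), and -0.16 without fb-PMT replicate 1.

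Of the plasminogen activation pair, PLAU read 14.63 and 14.69 in the control group and 14.46 and 14.35 in the fb-PMT group. PLAUR, the glycolipid-anchored receptor, read 7.97 and 8.23 in the control group and 8.53 and 8.34 in the fb-PMT group. Enzyme and receptor thus differed in opposite directions as measured, with neither passing the test. The log2 difference was -0.25 for PLAU (SE 0.15, 95% interval -0.62 to 0.12, adjusted p = 0.581) and 0.33 for PLAUR (SE 0.17, 95% interval -0.10 to 0.76, adjusted p = 0.542). Without control replicate 1 the difference of PLAUR was 0.20. For neither gene did the interval with all arrays reach a 2-fold change.

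The groups did not overlap for any of the 8 genes, 3 with fb-PMT higher and 5 with fb-PMT lower. Over all transcript clusters 20.2% had such groups with fb-PMT higher and 22.3% with fb-PMT lower (42.6% in all), and 50.1% of the 9199 that were above the negative controls in at least 1 group. The median size of the difference, regardless of sign, was 0.48 for the members, 0.18 over all transcript clusters and 0.16 over those above the negative controls. As the members were chosen with earlier results of these data known, neither this size nor the lack of overlap tests the set. With 2 arrays against 2, the smallest two-sided p that an exact permutation test can give is 0.33.

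**Figure D2:**
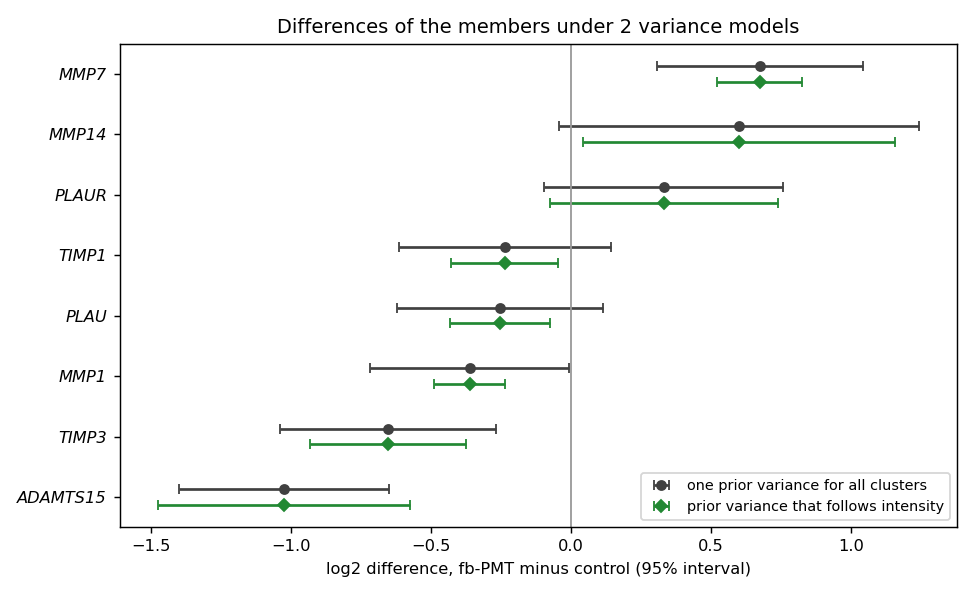
Log2 differences (horizontal axis, fb-PMT minus control, n = 2 arrays each) of the 8 genes with 95% intervals, under limma with 1 prior variance for all transcript clusters (circles) and with a prior that follows intensity (diamonds). The interval of MMP1 narrows most, from -0.72 to -0.0057 to -0.49 to -0.24, while that of ADAMTS15 widens.

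The calls depended on the variance that limma borrows from other genes. With 1 prior for all transcript clusters, the prior standard deviation was 0.18, whereas the members' own within-group standard deviation ran from 0.01 (MMP1) and 0.06 (MMP7 and PLAU) to 0.37 (MMP14). The median within-group standard deviation was lower at higher levels, 0.23 at log2 values of 4 to 6 and 0.068 above 14. A prior that follows this trend was 0.063 at MMP1, 0.070 at MMP7, 0.13 at TIMP3 and 0.22 at ADAMTS15.

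With that trend, MMP7 rose (adjusted p = 0.000498 in limma) and MMP1 (adjusted p = 0.00906), TIMP3 (adjusted p = 0.0281) and ADAMTS15 (adjusted p = 0.0314) fell. These were 4 of the 8 members, against 1.37% of all transcript clusters higher and 0.513% lower (1.88% in all), and 3.91% of those above the negative controls. ADAMTS15 is above the negative controls only in its control group, where it is high. The members were chosen with earlier results of these data known, so their count beside these shares is a description and no test of the set. MMP14, TIMP1, PLAU and PLAUR did not pass, with adjusted p = 0.191 for PLAU, 0.266 for TIMP1, 0.343 for MMP14 and 0.50 for PLAUR. The count was 4 without control replicate 1, where 2.72% of all transcript clusters passed, and 5 without control replicate 2, where MMP14 was added and 4.29% passed. Without fb-PMT replicate 1 or without fb-PMT replicate 2 it was 1, MMP7 in both cases (adjusted p = 0.0131 and 0.0102), against 0.601% and 0.55% of all transcript clusters. The share over all transcript clusters thus also changed with the array left out, though not always along with the count. In each of these fits the lone array is assumed to vary like the pair of the other group.

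**Figure D3:**
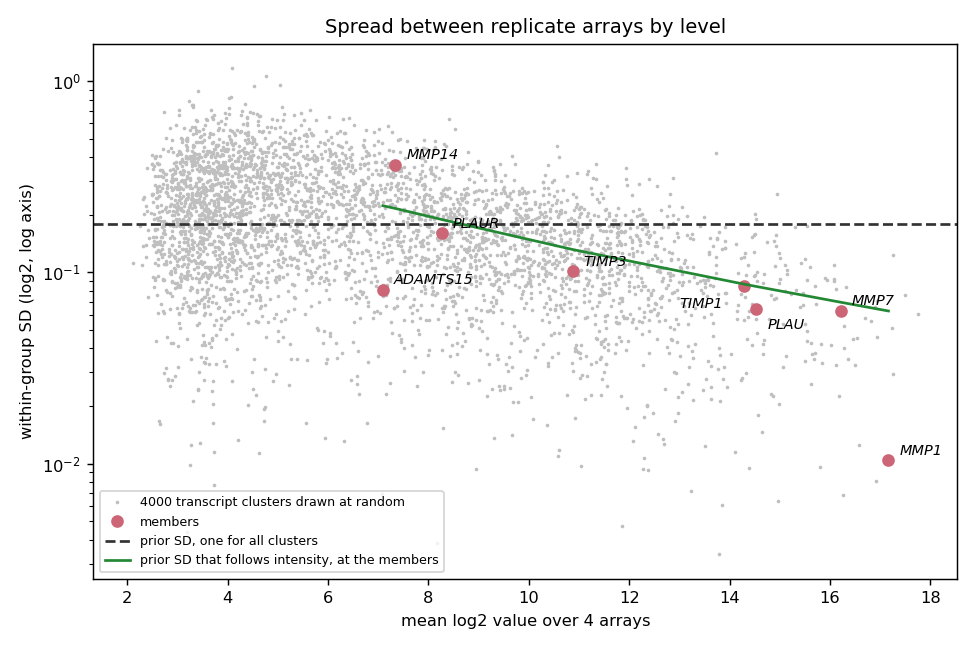
Within-group standard deviation (vertical log axis) against mean log2 value (horizontal axis) for 4000 transcript clusters (dots) and the 8 members (red circles), with the single prior (dashed line) and the prior that follows intensity (solid line). MMP1, at 0.01, and the other bright members lie below the dashed line, and MMP14 lies above it.

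MMP7 and MMP1 lie in the same gene cluster on chromosome 11. By the order of protein-coding genes in RefSeq the cluster runs MMP7, MMP20, MMP27, MMP8, MMP10, MMP1, MMP3, MMP12 and MMP13. Of these 9 genes only MMP7 and MMP1 were above the negative controls, on all 4 arrays. The other 7, stromelysins MMP3 and MMP10 and the collagenases MMP8 and MMP13 included, lay between 2.97 and 4.70 on every array. The pair that was detected differed from control in opposite directions, 0.67 for MMP7 and -0.36 for MMP1.

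**Figure D4:**
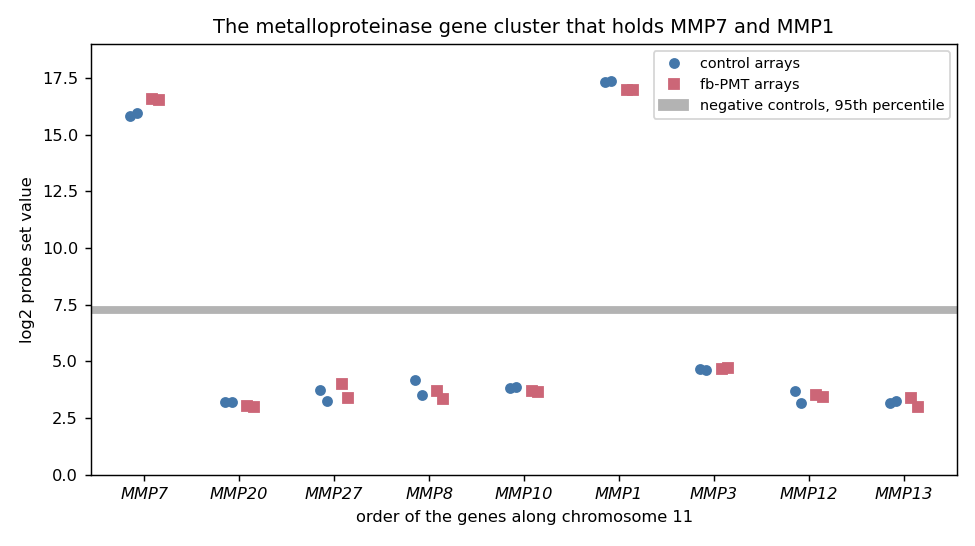
Log2 probe set values (vertical axis) of the 9 metalloproteinase genes of the cluster, in their order along the chromosome, on the control arrays (circles) and the fb-PMT arrays (squares), with the range of the negative control percentile as a grey band. MMP7 and MMP1 lie above 15 and the other 7 genes below 5.

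The wider MMP family was largely below background. Of 19 other MMP genes measured, 17 stayed under the background on all 4 arrays, the gelatinases MMP2 (3.68 to 3.82) and MMP9 (4.87 to 5.78) among them. None of the 19 passed in limma's test and 2 had an unadjusted p under 0.05, both lower. Of these, MMP17 was under the background on every array. Over all transcript clusters 5.7% were higher and 5.49% lower at that p, the shares to set beside this count and those of the lists that follow. The median difference was 0.036, against -0.017 over all transcript clusters. MMP28, epilysin, read 7.44 and 8.18 in the control group and 7.08 and 6.90 in the fb-PMT group, where it was below the negative controls (at least 1.51-fold lower, adjusted p = 0.384). MMP15, another membrane-anchored MMP, read 6.99 and 6.87 without drug, below the negative controls, and 7.15 and 7.44 with it (adjusted p = 0.497), so no fold is given.

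Of 17 other ADAMTS genes, 16 stayed under the background throughout and 14 were lower as measured, with a median of -0.16, 0 past the test and 0 at an unadjusted p under 0.05. Over all transcript clusters 47.3% were higher as measured, the share to set beside this count and the counts of direction that follow. ADAMTS17, above the negative controls on both fb-PMT arrays, had a difference of -0.10 (SE 0.20). ADAMTS15 was thus, in the control group, among the few of its family above background.

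The membrane-bound ADAM proteases shed growth factors and receptors, and TIMP3 inhibits some of them. As measured 4 of 9 genes were higher and 5 lower, with a median of -0.18. The 4 higher ones were those above the negative controls, and the 5 lower ones were under the background on every array. ADAM17, which releases tumour necrosis factor, read 10.13 and 10.03 in the control group and 10.60 and 10.37 in the fb-PMT group. ADAM10, a sheddase of Notch and cadherins, read 12.32 and 12.30 in the control group and 12.75 and 12.67 in the fb-PMT group. In both genes every treated array was above every control array. The log2 difference was 0.40 for each (limma adjusted p = 0.446 for ADAM17 and 0.416 for ADAM10), and ADAM15 was at 0.26 with overlapping groups. None of the 9 passed, and 2 higher and 2 lower had an unadjusted p under 0.05. The 2 lower ones were under the background on every array.

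Other genes that restrain, bind or induce MMPs had 5 of 8 higher and 3 lower as measured, with a median of 0.17 and 0 past the test. LCN2, a lipocalin that binds MMP9, read 10.93 and 10.97 without drug and 11.50 and 11.66 with it. Its difference was 1.55-fold (log2 difference 0.63, SE 0.15, adjusted p = 0.293, and adjusted p = 0.0244 with the intensity trend). RECK, a membrane-anchored MMP inhibitor, was at 0.21 (adjusted p = 0.635), and BSG, which induces MMPs in neighbouring cells, at 0.22 (adjusted p = 0.621). FURIN, which had the other unadjusted p under 0.05 in this list, activates MMP14. It was below the negative controls in both groups and was named after its value was seen.

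In the rest of the plasminogen system 9 of 15 genes were higher and 6 lower as measured, with a median of 0.041. None passed, and 1 higher and 2 lower had an unadjusted p under 0.05. Of the 2 lower ones, F12 was under the background on every array. PLAT, the tissue-type activator, read 12.81 and 12.65 in the control group and 13.36 and 13.21 in the fb-PMT group. Its difference was 1.47-fold (log2 difference 0.55, SE 0.16, adjusted p = 0.350, and adjusted p = 0.0218 with the intensity trend). SERPINE2, protease nexin-1, inhibits urokinase and thrombin. It read 15.72 and 15.73 without drug and 15.33 and 15.23 with it (log2 difference -0.44, SE 0.15, adjusted p = 0.390, and adjusted p = 0.0109 with the intensity trend).

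The activators PLAT and PLAU thus differed from control in opposite directions as measured, PLAT upward and PLAU downward. Plasminogen itself (PLG) was under the background on every array. S100A10, which with ANXA2 holds plasminogen at the cell surface, had a difference of -0.26 (adjusted p = 0.595), and ANXA2 of 0.038 (adjusted p = 0.951).

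Matrix genes had 7 of 14 higher and 7 lower as measured, with a median of 0.024 and 0 past the test. THBS1, a matrix glycoprotein, was at -0.39 (adjusted p = 0.446), COL6A1 at -0.35 (adjusted p = 0.581) and COL18A1 at 0.34 (adjusted p = 0.568). At an unadjusted p under 0.05 there was 1 higher and 1 lower. The higher one, TNC, was under the background on every array.

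Among the AP-1 and ETS factors known to act on protease promoters, 3 of 11 genes were higher and 8 lower as measured, with a median of -0.27. None passed, and 3 had an unadjusted p under 0.05, all lower. FOSL1, an AP-1 subunit typical of invasive carcinoma cells, read 14.15 and 14.08 in the control group and 13.53 and 13.46 in the fb-PMT group. Its mean was 1.54-fold lower (log2 difference -0.62, SE 0.15, adjusted p = 0.280, and adjusted p = 0.00374 with the intensity trend). Its partner JUN was at -0.52 (adjusted p = 0.348), and JUND, whose control arrays were under the background and whose groups overlapped, at least 1.17-fold higher as measured (adjusted p = 0.497).

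**Figure D5:**
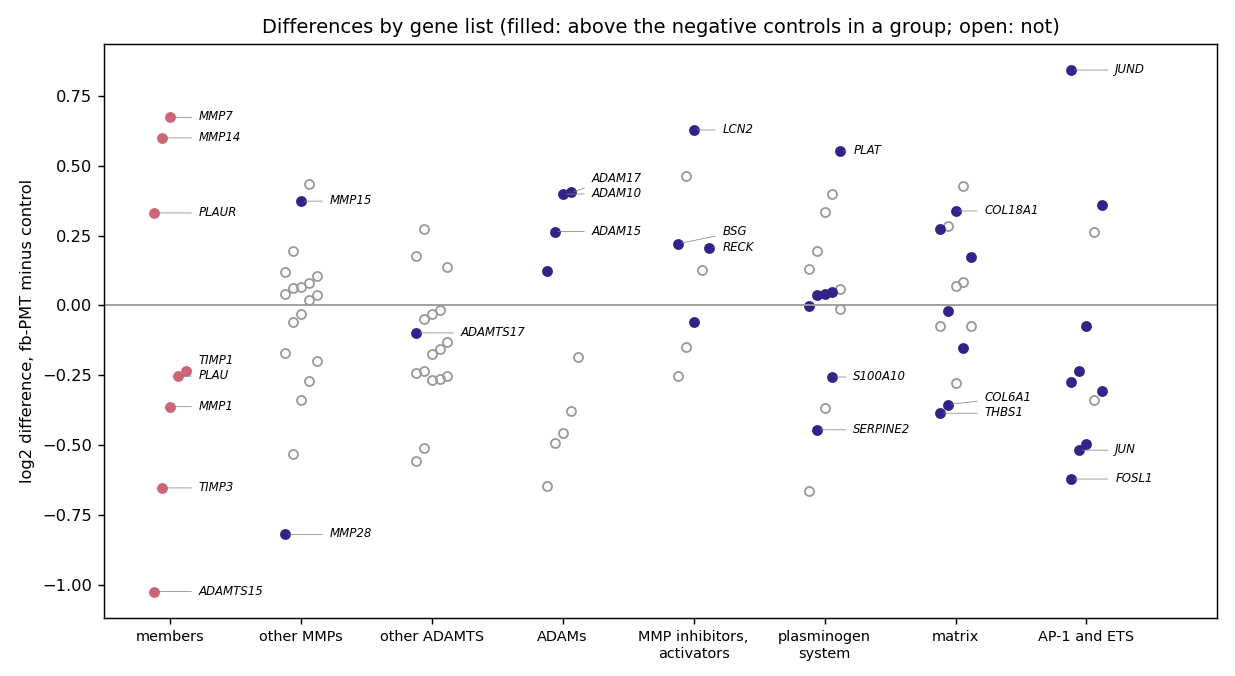
Log2 differences (vertical axis, fb-PMT minus control) of the members and of 7 lists of related genes, 1 point per gene, filled where both arrays of at least 1 group were above the negative controls. The members span -1.02 to 0.67, and most other MMP and ADAMTS genes are open points near 0.

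Beside these genes stand the epithelial markers, of which 0 of 7 passed in limma's test. With the intensity trend 1 higher and 3 lower passed, against 1.37% and 0.513% of all transcript clusters. In either direction 3.91% of those above the negative controls did so. The lists were chosen with earlier results of these data known, so this count is a description. The mean log2 value over the 7 ductal markers ranged over 12.54 to 12.59 in untreated and 12.31 to 12.35 in treated cells, 5 of them lower and 2 higher, and KRT7 was at -0.95 (adjusted p = 0.192). The part of this shift in the members' differences was not tested. The fibroblast markers averaged 4.74 to 4.92 in the control group and 4.43 to 4.56 in the fb-PMT group, with 5 of the 6 below background.

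For the 2 members with the smallest p, the genes with the most similar profile were sought among 8090 transcript clusters with a gene name above the negative controls in a group. Likeness was the Euclidean distance over the 4 array values after subtraction of the control mean, in log2 units. Nearest to ADAMTS15, whose treated values were below the negative controls, were RAB27B (distance 0.035), LONRF2 (0.14) and SURF6 (0.19), with log2 differences between -1.03 and -0.89. Nearest to MMP7 were PARP3 (0.059), CYP3A5 (0.066) and FLYWCH2 (0.073), with log2 differences of 0.71, 0.68 and 0.70. With 4 arrays such a distance describes these profiles only.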

How the data were processed

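The deposited table holds log2 values per probe set that the authors, per the submitters' processing notes, computed by RMA with Transcriptome Analysis Console 4.0.1.36. RMA corrects background, normalizes between arrays and summarises probes. The sources used here give neither its variant nor a genome build. Normalization removes any shift shared by most genes. Of 24351 probe sets, 2903 controls were left out and 21448 transcript clusters went into a fit by lmFit and eBayes of limma 3.58.1 under R 4.3.3 (2 residual and 3.72 prior degrees of freedom, no covariate). Adjusted p-values are two-sided Benjamini-Hochberg values with a threshold of 0.05. The fit without a trend was tested on simulated data. Unlike here, the spread of those data did not follow level, and the trend fit was not tested in this way. Intervals are 95% intervals of the moderated fit, whose median SE was 0.175, and the number of arrays limits their precision. A fold against a group below the negative controls is a lower bound from their 95th percentile.

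The members, lists and tests were chosen with earlier results of these data known. From each list the text names the genes that passed, or else up to 3 above the negative controls with the largest difference, and always MMP2, MMP9 and PLAT. Others, such as FURIN, PLG, ANXA2, KRT7, MMP17, F12 and TNC, were named after their values were seen. Other settings tried were a replicate block, an intensity trend (also with robust variances), filters on low values, genes with 1 symbol, the mean over transcript clusters of a symbol, quantile normalization, median centring, array weights, the 99th percentile of the negative controls and leaving out each array. The intensity trend with each array left out was added after the data were seen. Promoters and gene order are from RefSeq (GRCh38.p14). Of the 9 genes 6 had a promoter window.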

Additional observations from a re-analysis of the deposited data

How the results depend on the processing

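Over 14 alternatives each, the 8 members' differences kept their direction in all 112 values, and 101 stayed on the same side of the threshold. Only quantile normalization and median centring could have reversed a direction. The other settings leave the difference as it is or, as no member's groups overlap, cannot change its sign. The other 11 now passed. With the intensity trend these were MMP1 (-0.36), MMP7 (0.67), TIMP3 (-0.65) and ADAMTS15 (-1.02), 1 higher and 3 lower, with 293 transcript clusters higher and 110 lower and 2 and 2 pathway list genes. With robust variances added the same members passed at the same differences, with 286 higher, 108 lower and again 2 and 2. Among transcript clusters above the negative controls, MMP7, TIMP3 and ADAMTS15 passed (1 higher and 2 lower; adjusted p = 0.0319, 0.0423 and 0.00763), with 235 higher, 83 lower and 1 and 1 pathway list genes. There fewer and brighter genes set the prior, and ADAMTS15 was kept only through its control group, where it is high.

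The count of 21 higher and 0 lower transcript clusters became 61 and 6 without the lowest 30%, 42 and 2 with 1 symbol, and 43 and 2 with the mean per symbol. Leaving out 1 array gave 1 to 9 higher, and the trend's count of 4 members became 1 to 5. For the changes without a named reason the cause was not tested. With the replicate block 1 was higher and 0 members passed. The labels do not say that same-numbered arrays are pairs, so the numbers were not taken to pair the arrays. The deviations of same-numbered arrays correlated with r = 0.042 over transcript clusters, of which 11820 were below background on all 4 arrays. That value does not settle whether the arrays were paired. Against the 99th percentile of the negative controls, which is 9.39 to 10.3, 3 members and not 1 were below in a group. They were below it on every array of both groups, so at that cutoff no fold or bound holds for them. MMP14, PLAUR and ADAMTS15 are therefore the members limited by signal over background.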
